A study of Homo sapiens with 8 samples.

Results

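The retinoid receptors and a set of genes known to be induced by retinoids were followed over 8 Affymetrix arrays. A gene was taken as a member if it was one of RARA, RARB, RARG, RXRA, RXRB, NR2F1, NR2F2, NRIP1, RARRES1 and TGM2, and it was read at the probe sets whose only gene symbol was that gene. The 10 genes gave 9 with such a probe set and 28 probe sets in all, of 19775 genes and 54613 probe sets tested. NR2F2 had none under the annotation used here and was not analysed. Each gene is given by its brightest probe set, that with the highest mean log2 signal over the 8 arrays, and the others serve as a check.

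The 8 arrays fall into 4 groups of 2. The trMCF clone 11 cells are a single ring-cloned line from MCF-10F cells that had been treated with estradiol. In collagen they form no tubules, only spherical masses and intermediate structures. The next 2 groups are the same clone kept for 26 days in 1 μM or 10 μM all-trans retinoic acid (ATRA) with the medium replaced daily. MCF-10F, the parent of all of them, is a spontaneously immortalized breast epithelial line with a normal-like phenotype. Every statement about transformed cells therefore rests on 1 clone. Nothing in the labels states if untreated arrays hold cells given the DMSO vehicle, or if both arrays of a group are separate cultures. The p-values thus measure only the spread between these arrays, which may be technical. Replicate 1 of trMCF clone 11 carries a disease-state tag of normal that goes against its title, and the title was followed.

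Retinoic acid acts through the retinoic acid receptors (RARA, RARB and RARG), which bind DNA as heterodimers with the retinoid X receptors (RXRA and RXRB among them). Without ligand the pair recruits corepressors, and with ligand it exchanges them for coactivators at direct repeats of a short half-site. Several target genes feed back on the pathway: RARB codes for a receptor, CYP26 enzymes break retinoic acid down, and NRIP1 is a ligand-dependent corepressor of nuclear receptors. In the breast, loss of RARB expression is common in carcinoma.

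Promoters are shown for RARB and CYP26A1, which hold the rare paired motif, and for NR2F1 and NRIP1, which rose with ATRA. The windows are from RefSeq (GRCh38.p14), each with 250 bases before and 50 bases after a transcript start, printed 5′ to 3′ on the strand of the gene. Capitals mark retinoid half-sites, searched on either strand as AGGTCA (the consensus), as AGTTCA, as GGGTCA and as GGTTCA. A window was at hand for 9 of the 10 genes, and these 9 had 20 windows.

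Of 4 RARB windows, 1 holds 3 half-sites, and 2 of them form a direct repeat with a 5-base spacer (DR5), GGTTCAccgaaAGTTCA, at bases -53 to -37 from the start.
RARB, chr3:25428013-25428312, plus strand: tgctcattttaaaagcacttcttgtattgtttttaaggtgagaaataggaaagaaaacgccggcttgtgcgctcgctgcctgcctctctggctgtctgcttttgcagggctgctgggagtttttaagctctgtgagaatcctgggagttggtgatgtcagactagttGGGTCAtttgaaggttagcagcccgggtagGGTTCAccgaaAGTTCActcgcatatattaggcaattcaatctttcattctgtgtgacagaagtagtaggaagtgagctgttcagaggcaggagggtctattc
CYP26A1, which codes for a retinoic acid hydroxylase and is no member, is shown beside it because its window holds the only DR5 among 35 windows of the other retinoid targets, at bases -90 to -74 on the opposite strand (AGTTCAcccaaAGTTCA).
CYP26A1, chr10:93073643-93073942, plus strand: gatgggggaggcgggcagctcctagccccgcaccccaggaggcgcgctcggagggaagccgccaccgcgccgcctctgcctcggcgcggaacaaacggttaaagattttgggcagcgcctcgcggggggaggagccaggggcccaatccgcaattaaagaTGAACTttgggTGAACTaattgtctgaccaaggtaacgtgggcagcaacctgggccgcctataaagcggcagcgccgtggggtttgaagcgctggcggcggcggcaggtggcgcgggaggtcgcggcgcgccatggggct
Both NR2F1 windows and 1 of 3 NRIP1 windows had a single half-site, and none had a DR5.
NR2F1, chr5:93582972-93583271, plus strand: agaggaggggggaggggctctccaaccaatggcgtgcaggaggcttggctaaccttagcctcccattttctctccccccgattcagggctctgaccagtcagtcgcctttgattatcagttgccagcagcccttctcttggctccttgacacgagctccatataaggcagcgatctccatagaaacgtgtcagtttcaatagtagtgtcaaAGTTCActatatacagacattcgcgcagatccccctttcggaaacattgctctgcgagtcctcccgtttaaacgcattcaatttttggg
NR2F1, chr5:93586849-93587148, plus strand: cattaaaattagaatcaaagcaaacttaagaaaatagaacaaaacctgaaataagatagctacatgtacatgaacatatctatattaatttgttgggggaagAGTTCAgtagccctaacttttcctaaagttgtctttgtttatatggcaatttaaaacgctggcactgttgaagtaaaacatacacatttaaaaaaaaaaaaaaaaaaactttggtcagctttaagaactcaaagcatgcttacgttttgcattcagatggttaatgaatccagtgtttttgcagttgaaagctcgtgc
NRIP1, chr21:15065887-15066186, minus strand: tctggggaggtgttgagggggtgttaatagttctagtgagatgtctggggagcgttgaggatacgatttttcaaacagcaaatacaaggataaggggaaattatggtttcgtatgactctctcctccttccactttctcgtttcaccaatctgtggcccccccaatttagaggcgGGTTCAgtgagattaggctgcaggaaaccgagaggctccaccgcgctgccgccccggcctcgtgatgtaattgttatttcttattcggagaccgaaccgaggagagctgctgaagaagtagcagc

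A half-site was common in promoters of every kind. It stood in 9 of 20 member windows (45%), in 15 of 35 windows of the other retinoid targets (42.9%) and in 38.6% of all 35116 windows. The DR5 was rare, with 1 of 20 member windows (5%) and 31 of all windows (0.0883%). Direct repeats with spacers of 1 and 2 bases were in no member window and in 0.131% and 0.0399% of all windows. A match describes the letters of the window only, and a window without one says nothing of sites elsewhere.

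The arrays were alike in scale. Deposited signals are linear intensities scaled by the authors, array medians were 47.3 to 48.8, and between 21.5% and 23.7% of signals were under 16, so genes near or under the median may be close to background. Probe sets measured more than 2-fold apart between the 2 arrays of a group made up 7.71% in trMCF clone 11, 0.126% at 1 μM, 0.211% at 10 μM and 3.48% in MCF-10F. The untreated clone and MCF-10F were thus the more variable groups, and with 2 arrays in a group the precision is limited by their number. The log2 signals of all 8 arrays were fitted together in limma, with 1 mean per group, and p-values were adjusted by Benjamini-Hochberg over all 54613 probe sets. Errors below are standard errors of that fit with 2 arrays per group, and genes are said to have risen or fallen where the adjusted p is under 0.05. Of 8 measured breast epithelial markers, 6 were above the array median on all 8 arrays. KRT19 lay around it, at 26.5 to 72.1 over the 8 arrays, and KRT14 was below it on both 10 μM arrays.

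At 1 μM ATRA, NR2F1, NRIP1 and TGM2 rose against the untreated clone and no member fell. These were 3 of 9 genes, where 4.02% of all 19775 genes rose and 3.25% fell at their brightest probe set. At 10 μM the same 3 rose and none fell, against 3.94% of all genes that rose and 3.89% that fell. In trMCF clone 11 against MCF-10F, NR2F1 and TGM2 fell, 2 of 9 genes, where 5.74% of all genes fell and 4.56% rose. When either 1 μM array was left out no member passed at 1 μM, where 0.238% and 0.0556% of all genes then passed. When either 10 μM array was left out none passed at 10 μM, beside 0.258% and 0.283% of all genes. With the 6 arrays of the study's methods, or with either 10 μM array left out (1.9% of all genes), NR2F1 was the 1 member that passed at 1 μM, with NRIP1 at adjusted p = 0.0559 and TGM2 at 0.0623. The 3 comparisons share the untreated clone arrays, and NR2F1, NRIP1 and TGM2 were listed by the study from these arrays, so their directions are no independent evidence. The median difference over the 9 genes was 0.13 at 1 μM and 0.22 at 10 μM on the log2 scale, beside -0.06 and -0.01 over all genes.

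**Figure D1:**
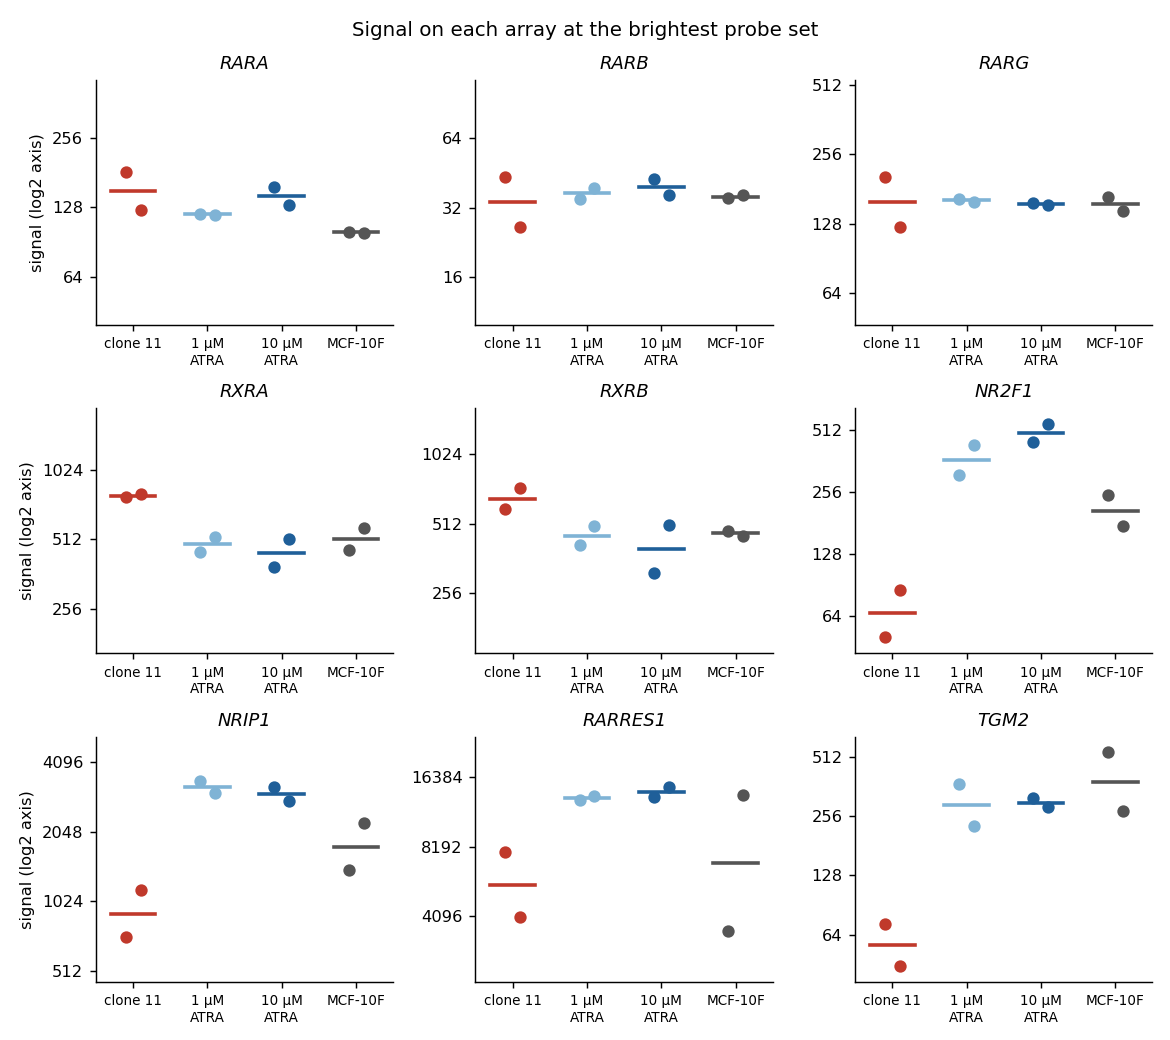
Signal of each member at its brightest probe set (y axis, log2-spaced, deposited intensity) on the 2 arrays of each group (points), with the group's geometric mean (line). NR2F1, NRIP1 and TGM2 lie lower in both trMCF clone 11 arrays than in every ATRA array, while the 2 MCF-10F arrays of RARRES1 lie 3.91-fold apart.

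Among the receptors, no RAR gene passed the test in any comparison. RARA, the most broadly expressed RAR, had signals of 181.9 and 125.2 in trMCF clone 11, 120.0 and 118.5 at 1 μM, 156.4 and 131.2 at 10 μM, and 99.6 and 99.5 in MCF-10F (probe set 216300_x_at). The clone arrays stood above both MCF-10F arrays and above both 1 μM arrays, but overlapped those at 10 μM. At 203750_s_at the clone was likewise above MCF-10F and 1 μM, while at 203749_s_at and 211605_s_at it overlapped both. The other RARA probe sets gave differences of 0.12 to 0.43 in the clone and -0.22 to -0.02 at 1 μM, none past the threshold. At the brightest probe set the difference was 0.60 ± 0.20 in trMCF clone 11 against MCF-10F (limma, adjusted p = 0.121) and -0.34 ± 0.20 at 1 μM against the clone (adjusted p = 0.374). Without trMCF clone 11 replicate 2, the lower of the pair, RARA passed in both, at 0.87 (adjusted p = 0.0117) and -0.61 (adjusted p = 0.0432), but with that array left out 24.5% and 21.7% of all genes passed in these comparisons.

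RARB, the receptor gene with the DR5 printed above and a widely used readout of retinoid response, was under the array median even at its brightest probe set. Its signals were 43.5 and 26.4 in trMCF clone 11, 35.2 and 38.9 at 1 μM, 42.9 and 36.3 at 10 μM, and 35.2 and 36.5 in MCF-10F (217020_at). The 2 clone arrays lay on either side of all 6 others. The log2 difference was 0.13 at 1 μM (95% interval -0.43 to 0.69, limma adjusted p = 0.805) and 0.22 at 10 μM (-0.34 to 0.78, adjusted p = 0.713). The intervals reach 0.69 and 0.78, so a smaller rise is not excluded at this level of signal. All 5 RARB probe sets had signals between 7.13 and 43.5, under the median of every array, and none passed the test.

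At its brightest probe set RARG, the RAR typical of skin, lay within the span of the clone arrays in every group. It measured 203.6 and 123.2 in trMCF clone 11, 164.3 and 158.9 at 1 μM, 156.7 and 153.9 at 10 μM, and 166.7 and 145.5 in MCF-10F (204189_at). The difference was 0.03 at 1 μM (95% interval -0.52 to 0.58, limma adjusted p = 0.961) and -0.03 at 10 μM (adjusted p = 0.972). At the dimmer 217178_at both 10 μM arrays (29.3 and 28.7) were below both clone arrays (33.6 and 29.7), and MCF-10F measured 36.5 and 31.6. No RARG probe set passed the test in any comparison.

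RXRA and RXRB lay higher in the untreated clone than in every other group, by differences that mostly missed the threshold. RXRG, the other RXR gene and no member, was under the array median and did not share this. Its signals were 18.6 and 14.4 in the clone, 15.8 and 14.8 at 1 μM, 15.3 and 17.3 at 10 μM, and 17.4 and 18.1 in MCF-10F. RXRA had signals of 778.5 and 801.7 in trMCF clone 11, 452.4 and 522.4 at 1 μM, 387.5 and 511.4 at 10 μM, and 458.3 and 574.9 in MCF-10F (202449_s_at). Both clone arrays were above all 6 others. The difference was -0.70 ± 0.19 at 1 μM (limma, adjusted p = 0.0816), -0.83 ± 0.19 at 10 μM (adjusted p = 0.0510) and 0.62 ± 0.19 in trMCF clone 11 against MCF-10F (adjusted p = 0.0988). A second RXRA probe set, 202426_s_at, gave -0.68, -1.04 and 0.82 in the same comparisons, none past the threshold. The 10 μM difference of RXRA passed after quantile normalization (limma, adjusted p = 0.0426), without the dimmest 33% of probe sets (adjusted p = 0.0471) and with either MCF-10F array left out (adjusted p = 0.0488), where 9.17% of all genes passed.

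RXRB measured 590.3 and 730.8 in trMCF clone 11, 413.9 and 498.3 at 1 μM, 311.6 and 507.0 at 10 μM, and 477.9 and 454.4 in MCF-10F (209148_at). Here too both clone arrays were above all others, with differences of -0.53 ± 0.25 at 1 μM (limma, adjusted p = 0.265), -0.72 ± 0.25 at 10 μM (adjusted p = 0.147) and 0.50 ± 0.25 in the clone against MCF-10F (adjusted p = 0.290). Only the dim probe set 215099_s_at passed, at -0.84 at 10 μM (adjusted p = 0.0375) and 0.81 in the clone against MCF-10F (adjusted p = 0.0348), with signals of 33.5 and 30.6 in the clone, 18.9 and 16.9 at 10 μM, and 19.8 and 16.8 in MCF-10F. When a gene's probe sets were averaged instead, RXRA and RXRB passed in both comparisons, by -0.94 (adjusted p = 0.0249) and -0.61 (adjusted p = 0.0317) at 10 μM and by 0.72 (adjusted p = 0.0457) and 0.57 (adjusted p = 0.0311) in the clone. Against MCF-10F, ATRA-treated cells differed by -0.08 and -0.21 for RXRA and by -0.04 and -0.23 for RXRB at 1 μM and 10 μM.

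NR2F1 codes for COUP-TFI, an orphan nuclear receptor that binds direct repeats of the same half-site and that retinoic acid induces in embryonal carcinoma cells. Its signal was 50.3 and 85.7 in trMCF clone 11, 308.1 and 433.4 at 1 μM, 446.1 and 545.9 at 10 μM, and 246.8 and 174.8 in MCF-10F (209505_at, its only probe set). The groups did not overlap, and the lower clone array was close to the array median. NR2F1 rose 5.56-fold at 1 μM, by 2.48 ± 0.31 on the log2 scale (limma, adjusted p = 0.0108), and 7.51-fold at 10 μM, by 2.91 ± 0.31 (adjusted p = 0.00622). In trMCF clone 11 it fell by 1.66 ± 0.31 against MCF-10F (adjusted p = 0.0225). ATRA-treated cells lay above MCF-10F by 0.82 (adjusted p = 0.330) and 1.25 (adjusted p = 0.116), differences that did not pass. The difference at 10 μM passed with either clone array left out (limma, adjusted p = 0.0381), as did 6.39% of all genes.

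The fall of NR2F1 in the clone was close to the threshold. Without MCF-10F replicate 1 it was -1.41 (limma, adjusted p = 0.114), without trMCF clone 11 replicate 1 it was -1.28 with an adjusted p just over the threshold, and with the 6 arrays of the study's methods, which leave out 10 μM, the adjusted p was 0.0580. Leaving out any of the 4 ATRA arrays likewise put it just over, at 0.0522 to 0.0580.

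NRIP1 codes for RIP140, which binds liganded RARs and other nuclear receptors and represses their targets. It had signals of 714.8 and 1138.0 in trMCF clone 11, 3381.8 and 3001.6 at 1 μM, 3201.3 and 2787.0 at 10 μM, and 1392.4 and 2220.4 in MCF-10F (202599_s_at). Every ATRA array was above every MCF-10F array, and every MCF-10F array above the clone. NRIP1 rose 3.53-fold at 1 μM (1.82 ± 0.29, limma adjusted p = 0.0183) and 3.31-fold at 10 μM (1.73 ± 0.29, adjusted p = 0.0204), while the clone differed from MCF-10F by -0.96 ± 0.29 (adjusted p = 0.0916). With either 1 μM array left out the adjusted p at 10 μM was 0.0605, and without trMCF clone 11 replicate 2 the clone's difference passed at -1.30 (adjusted p = 0.0203), as did 24.5% of all genes.

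Another NRIP1 probe set kept the ATRA arrays apart from MCF-10F as well. At 202600_s_at the signals were 606.1 and 561.8 in trMCF clone 11, 2154.3 and 1871.7 at 1 μM, 2048.3 and 1803.6 at 10 μM, and 714.8 and 829.7 in MCF-10F. There NRIP1 rose by 1.78 ± 0.15 at 1 μM against the clone (limma, adjusted p = 0.00360) and by 1.38 ± 0.15 (adjusted p = 0.0107) and 1.32 ± 0.15 (adjusted p = 0.0109) at 1 μM and 10 μM against MCF-10F. At the brightest probe set these comparisons with MCF-10F gave 0.86 (adjusted p = 0.260) and 0.76 (adjusted p = 0.296).

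TGM2 codes for tissue transglutaminase, a protein crosslinking enzyme long used as a marker of retinoid response. It measured 72.5 and 44.2 in trMCF clone 11, 375.6 and 229.3 at 1 μM, 316.3 and 284.9 at 10 μM, and 541.9 and 272.5 in MCF-10F (201042_at). The clone arrays were below all others, and the ATRA arrays overlapped MCF-10F. TGM2 rose 5.19-fold at 1 μM (2.37 ± 0.39, limma adjusted p = 0.0214) and 5.31-fold at 10 μM (2.41 ± 0.39, adjusted p = 0.0198), and in the clone it fell by 2.76 ± 0.39 against MCF-10F (adjusted p = 0.0102). The second clone array was under its array median, so the folds are uncertain. A floor of 16 changed no TGM2 signal at this probe set and left both differences as they were. In that fit the standard error was 0.48, and the limma adjusted p was 0.0989 at 1 μM and 0.0991 at 10 μM. With only the 4 arrays of the clone and MCF-10F in the fit, the fall had an adjusted p of 0.127. The difference from MCF-10F was -0.39 at 1 μM (95% interval -1.32 to 0.54) and -0.36 at 10 μM (-1.28 to 0.57), so that at these array numbers levels well below and above that of MCF-10F both remain possible.

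The TGM2 probe sets differed in size. At 211003_x_at TGM2 rose by 1.18 at 1 μM (limma, adjusted p = 0.0394) and fell by 1.55 in the clone (adjusted p = 0.0141), and at 211573_x_at it fell by 1.60 in the clone (adjusted p = 0.0394) while the 1 μM difference of 1.39 did not pass (adjusted p = 0.0701). The fourth, 216183_at, had signals of 36.1 to 49.4 on all arrays and differences of 0.07 at 1 μM and -0.15 in the clone.

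RARRES1, also called TIG1, was found as a tazarotene-induced gene in skin and is often silenced in carcinomas. Its signals were 7750.2 and 4052.4 in trMCF clone 11, 13086.5 and 13531.4 at 1 μM, 13394.4 and 14849.8 at 10 μM, and 3516.7 and 13754.2 in MCF-10F (221872_at). Both clone arrays were below all ATRA arrays, while the 2 MCF-10F arrays stood on either side of both clone arrays. RARRES1 did not pass, with differences of 1.25 ± 0.59 at 1 μM (limma, adjusted p = 0.273), 1.33 ± 0.59 at 10 μM (adjusted p = 0.263) and -0.31 ± 0.59 in the clone against MCF-10F (adjusted p = 0.809). The other 2 probe sets gave 1.91 and 1.96 at 1 μM, with adjusted p of 0.222 and 0.216, and split MCF-10F in the same way (2221.8 and 13133.2, and 1106.5 and 6815.6). Leaving out either MCF-10F array moved the clone's difference to 0.67 or -1.30, with neither past the threshold.

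**Figure D2:**
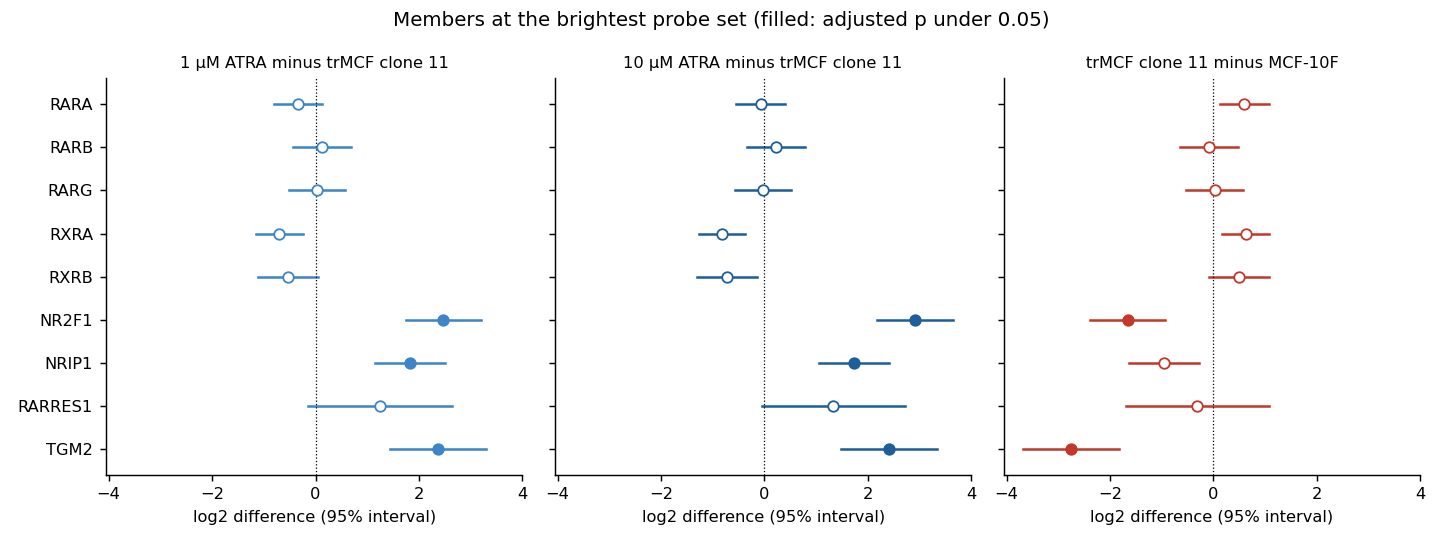
Log2 difference of each member at its brightest probe set (points) with its 95% interval (lines) at 1 μM and at 10 μM ATRA against trMCF clone 11 and in the clone against MCF-10F, filled where the adjusted p is under 0.05. NR2F1, NRIP1 and TGM2 are filled at both doses, NR2F1 and TGM2 in the clone, and the intervals of RARRES1 cross 0 in all panels.

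**Figure D3:**
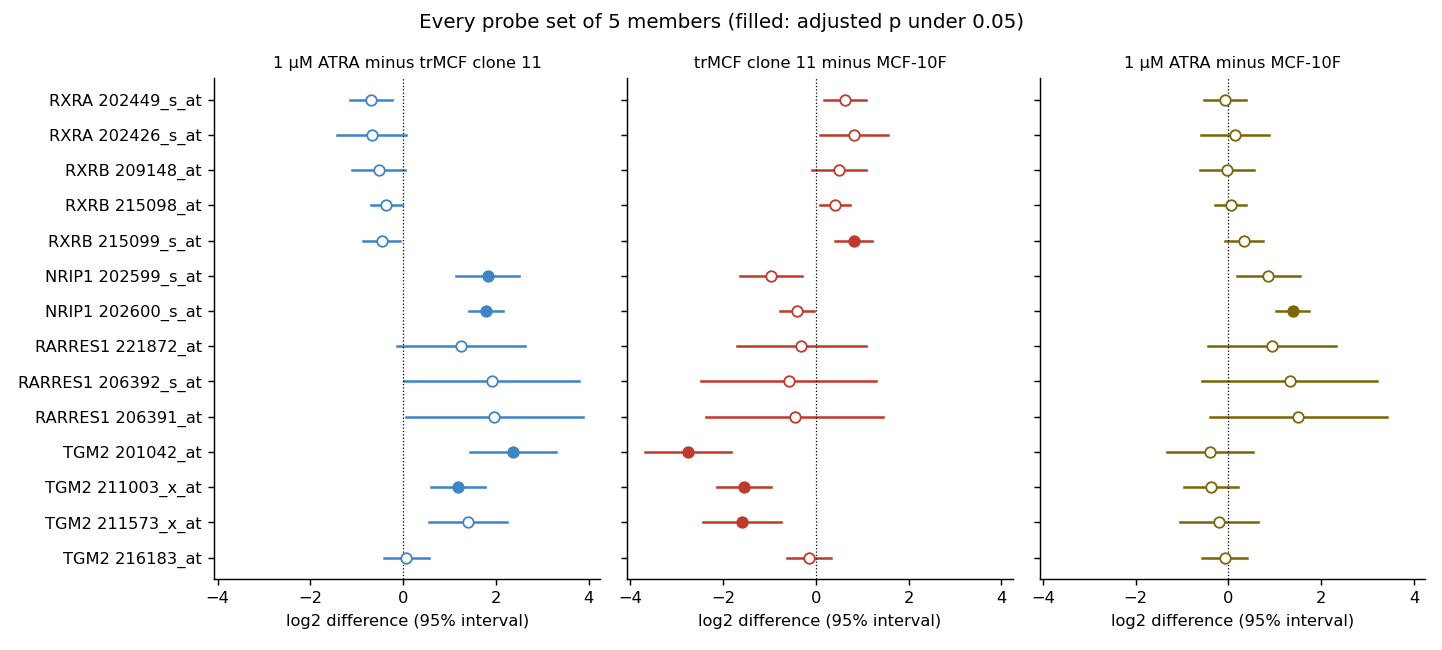
Log2 differences with 95% intervals at every probe set of RXRA, RXRB, NRIP1, RARRES1 and TGM2 at 1 μM ATRA against the clone, in the clone against MCF-10F and at 1 μM ATRA against MCF-10F, filled where the adjusted p is under 0.05. Probe sets of a gene share a direction in the first 2 panels, and the TGM2 probe set 216183_at lies near 0 in all 3.

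No member passed between the doses. At 10 μM against 1 μM, limma called 0 of 9 members and 0% of 19775 genes, and at an unadjusted p under 0.05 it called 0 members and 1.69% of genes. NR2F1 was highest at 10 μM, with a difference of 0.43 (95% interval -0.29 to 1.16). The difference was 0.27 for RARA (-0.20 to 0.73) and -0.06 for RARG (-0.60 to 0.49). RARRES1 differed by 0.08, TGM2 by 0.03 and NRIP1 by -0.09. The 10-fold step in dose thus gave no difference that passed, and the intervals do not exclude a modest one. Against MCF-10F, 0 of 9 members passed at 1 μM and at 10 μM (1.84% and 2.56% of all genes), with 2 and 3 members at an unadjusted p under 0.05 (15% and 16.5% of all genes) by the same fit.

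Bulk signals cannot tell fewer expressing cells from less RNA per cell. Markers of other cell types were also read. Summed signal of 6 fibroblast genes was 445.0 to 662.2 in trMCF clone 11, 287.5 to 295.1 at 1 μM, 305.0 to 308.1 at 10 μM and 1033 to 1764 in MCF-10F. COL3A1 and LUM were under the array median on all 8 arrays, while COL1A1 (81.0 to 1338) and DCN (65.0 to 199.0) were above it on all 8. COL1A2 was above it only in MCF-10F, at 186.0 and 192.9. Of the 6, 2 fell in the clone against MCF-10F (5.74% of all genes). At 10 μM against the clone 1 rose and 1 fell (3.94% and 3.89%). Against MCF-10F, 3 fell at 1 μM and 2 at 10 μM, where 1.84% and 2.56% of all genes passed in either direction. Of 4 endothelial markers only PECAM1 was above the median, and their sum was 218.4 to 348.7 in the clone, 671.5 to 851.6 at 1 μM, 920.3 to 1276 at 10 μM and 185.0 to 1157 in MCF-10F. Leukocyte PTPRC and adipocyte ADIPOQ and LEP were under the median on all arrays, while CD3E, at 55.4 to 84.6, and PLIN1, at 52.4 to 110.4, were above it. PLIN1 rose by 0.88 at 10 μM against MCF-10F (limma, adjusted p = 0.0476). Breast epithelial markers summed to 37821 to 39707 in the clone, 29229 to 30862 at 1 μM, 26441 to 27216 at 10 μM and 36960 to 53227 in MCF-10F. Of these 8, KRT14 and ITGA6 fell at both doses against the clone, where KRT14 fell by 4.61 at 1 μM and fell by 6.66 at 10 μM on the log2 scale. The part of these shifts in the members' differences was not tested.

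In a wider list of retinoid targets more genes rose than fell with ATRA. Of 32 genes, 26 had a probe set of their own, and at 1 μM 6 rose and 1 fell (4.02% and 3.25% of all genes), with a median difference of 0.60 beside -0.06 over all genes. At 10 μM 6 rose and none fell (3.94% and 3.89% of all genes), with a median of 0.56 beside -0.01. In trMCF clone 11 against MCF-10F 1 rose and 4 fell (4.56% and 5.74% of all genes), with a median of -0.35 beside 0.06. The list was drawn up from general knowledge with earlier results of these arrays known.

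CYP26B1, a retinoic acid hydroxylase, had signals of 211.4 and 273.0 in trMCF clone 11, 1615.6 and 1892.6 at 1 μM, 1377.7 and 1878.8 at 10 μM, and 461.1 and 386.8 in MCF-10F, and it rose by 2.86 ± 0.21 at 1 μM (limma, adjusted p = 0.00308). CYP26A1, whose window carries the DR5, was low in signal, at 30.5 and 22.4 in the clone, 45.9 and 40.2 at 1 μM, 68.9 and 58.4 at 10 μM, and 20.7 and 20.8 in MCF-10F. It rose by 1.28 ± 0.19 at 10 μM (limma, adjusted p = 0.0142), and its 1 μM difference of 0.72 did not pass (adjusted p = 0.0729). LRAT, which esterifies retinol for storage, fell by 1.67 ± 0.37 in the clone (adjusted p = 0.0387), and at 1 μM it rose by 1.68 ± 0.37 (adjusted p = 0.0466). DHRS3, a retinaldehyde reductase, went the other way in the clone, where it rose by 1.80 ± 0.42 (adjusted p = 0.0459), and it passed at neither dose against the clone. Its signals were 1387 and 700 in the clone, 2194 and 1978 at 1 μM, 2368 and 2397 at 10 μM, and 188 and 423 in MCF-10F. Every ATRA array thus lay above both clone arrays. STRA6, a receptor for retinol-binding protein, and CRABP2, which carries retinoic acid to the nucleus, did not pass, at 1.08 (limma, adjusted p = 0.0915) and -0.78 (adjusted p = 0.213) at 1 μM.

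Of the other targets, TNFAIP2, a retinoid- and TNF-inducible gene, rose by 2.80 ± 0.27 at 1 μM (limma, adjusted p = 0.00518), with signals of 403.2 and 286.2 in the clone, 2507.8 and 2218.8 at 1 μM, 2676.4 and 2904.6 at 10 μM, and 547.3 and 930.1 in MCF-10F. MEIS2, a homeobox partner of HOX proteins, rose by 1.93 ± 0.33 at 1 μM (adjusted p = 0.0229), and in the clone it fell by 1.53 ± 0.33 (adjusted p = 0.0352). RAI14 rose by 1.10 ± 0.18 (adjusted p = 0.0211) and FOXA1, a pioneer factor of luminal cells, by 1.47 ± 0.27 (adjusted p = 0.0295) at 1 μM. BHLHE40, a transcriptional repressor, fell by 0.79 ± 0.18 at 1 μM (adjusted p = 0.0492). In the clone, TGM1, which crosslinks the cornified envelope, fell by 1.48 ± 0.25 (adjusted p = 0.0175), and IGFBP3, which binds insulin-like growth factors, fell by 3.67 ± 0.66 (adjusted p = 0.0208). The IGFBP3 signals were 594.0 and 338.3 in the clone, 3677.3 and 2895.2 at 1 μM, 3143.1 and 3316.4 at 10 μM, and 2553.2 and 12680.6 in MCF-10F, and its difference of 2.86 at 1 μM against the clone did not pass (limma, adjusted p = 0.0533).

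**Figure D4:**
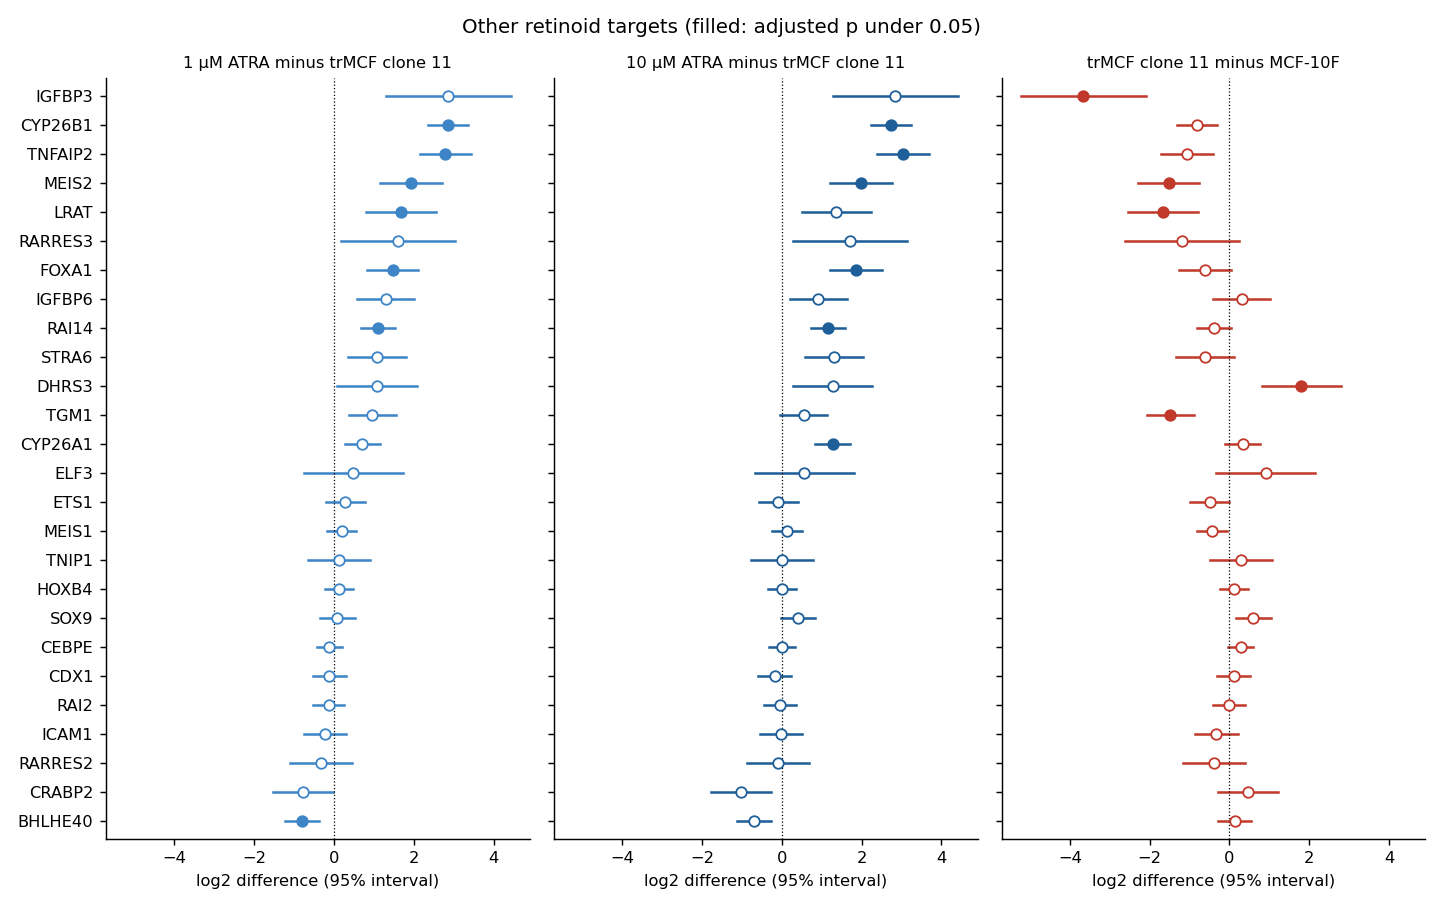
Log2 difference with its 95% interval of 26 other retinoid targets at the brightest probe set, at 1 μM and 10 μM ATRA against trMCF clone 11 and in the clone against MCF-10F, filled where the adjusted p is under 0.05. The 6 genes that rose at 1 μM include CYP26B1 and TNFAIP2, both near 2.8 or above, and BHLHE40 stands at the bottom with a fall of 0.79.

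Of 11 measured RAR and RXR coregulators none passed at 1 μM (where 4.02% of all genes rose and 3.25% fell) or at 10 μM (3.94% and 3.89%), with 3 at an unadjusted p under 0.05 at each dose (25.2% and 24% of all genes) by the same fit. In the clone 1 passed, SIN3A, a scaffold of histone deacetylase complexes, at 0.78 ± 0.15 above MCF-10F (limma, adjusted p = 0.0268), where 4.56% of all genes rose and 5.74% fell. A further list of 11 measured genes held partners of RXR and RXRG itself. Among them PPARG, the adipogenic receptor, rose by 0.92 ± 0.16 at 1 μM (limma, adjusted p = 0.0261), with 0.81 ± 0.16 at 10 μM (adjusted p = 0.0361). None of the 11 passed in the clone. PPARG was the 1 of these 11 that passed at each dose, where 4.02% and 3.94% of all genes rose. At an unadjusted p under 0.05, limma called 6 of the 11 at 1 μM and 5 of 11 at 10 μM, beside 25.2% and 24% of all genes. Differences of the 11 went both ways, from -1.64 to 0.92 at 1 μM, with a median of -0.10 beside -0.06 over all genes.

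The genes whose profile was closest to a member were found by the root mean square log2 difference over the 8 arrays, after centring each gene on its own mean, among 14693 genes. For NR2F1 they were ANKRD36B (0.198), ISL1 (0.314) and MCM3 (0.316), where the median gene lay at 1.18. For TGM2 they were FAM118B (0.305), ENC1 (0.318) and RUNX2 (0.346), with a median of 1.19. For RARRES1 they were HBEGF (0.263), CTSS (0.266) and LXN (0.293), with a median of 0.837. LXN starts next to RARRES1 on the chromosome in RefSeq, and its signals of 1356.4 and 8360.2 in MCF-10F were split as those of RARRES1 were. For RARB they were TMEM120B (0.0261), LINC01686 (0.0599) and DYRK1B (0.0829), with a median of 0.340, all with the higher signal in replicate 1 of trMCF clone 11.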

How the data were processed

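The 4 groups were each profiled on 2 Affymetrix U133 Plus 2.0 arrays. The deposited values are linear intensities, 1 per probe set and array, which the authors had summarised and scaled. Both MAS 5.0 and Plier appear in the study's methods; the sources used here do not say which gave these values. Detection calls were not used here, so genes at low signal may be near background.

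Signals entered the tests as log2 values, unscaled. The 62 control probe sets of 54675 were dropped. Of the 54613 tested, 41091 name 1 gene in the platform annotation, 1801 name several and 11721 are unnamed here, and a gene was read only from the first kind. Differences between groups were tested with limma 3.58.1 in R 4.3.3 (moderated statistics, Benjamini-Hochberg over all probe sets). The study's methods fitted 6 arrays; all 8 were fitted here so that both doses share 1 spread, and the 6-array fit is an alternative. The script was tested on simulated data with known changes. Figures were drawn with matplotlib.

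The genes named are all members, up to 4 genes of each list with the smallest p at 1 μM and in the clone if the adjusted p was under 0.05, and the 3 genes most like each of RARB, NR2F1, RARRES1 and TGM2. CYP26A1, FOXA1, DHRS3, BHLHE40, STRA6, CRABP2 and RXRG and the LRAT change at 1 μM fall outside that rule and were named after their values were seen. The cell type markers named singly, such as PLIN1, KRT14 and ITGA6, also fall outside it. The members and gene lists were chosen with earlier results of these data known. Alternatives were other sets of arrays, quantile normalization, a floor of 16, leaving out the dimmest 33% of probe sets, other priors and thresholds, the replicate number as a block, the mean over a gene's probe sets, and each array left out in turn.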

Additional observations from a re-analysis of the deposited data

How the results depend on the processing

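No difference of a member that passed the test changed direction under any alternative run, but the count that passed changed with the arrays and settings used. With the 6 arrays of the study's methods, but the adjusted p threshold used here, 1 of 9 members (NR2F1) passed at 1 μM ATRA against trMCF clone 11. NRIP1 had a limma adjusted p of 0.0559 there and TGM2 of 0.0623. In the clone against MCF-10F 1 passed in that fit (TGM2). With only the 4 arrays compared, 1 passed at 1 μM and 0 in the clone. A floor of 16 left 0 at 1 μM, 1 at 10 μM and 0 in the clone, though it changed no signal of NR2F1, NRIP1 or TGM2 at the brightest probe set. Averaging a gene's probe sets gave 5 at 10 μM, 4 in the clone, and 1 (NRIP1) at each dose against MCF-10F. A fold of 2 with an unadjusted p gave 1 (NR2F1) at 10 μM against MCF-10F. The share of all genes that passed under each of these settings is not given here. The counts therefore show only that the members' calls depend on the setting, and are no result about the members apart from other genes. The cause of these shifts was not tested.

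Leaving out each array in turn gave 0 to 4 members at 1 μM (0.0556% to 21.7% of all genes), 0 to 4 at 10 μM (0.258% to 20.3%) and 1 to 4 in the clone (4.02% to 24.5%). Against MCF-10F it gave 0 to 0 at 1 μM (0.157% to 5.21% of all genes) and 0 to 1 at 10 μM (0.228% to 6.39%), and between doses 0 to 0. A lone array was assumed to vary like the other groups. Replicates share numbers in the labels, but their deviations correlated at -0.0562 to 0.351 between groups, so the numbers were not taken as pairs. With the replicate number as a block, 1269 of 19775 genes passed at 1 μM beside 1437 without it, and 1404 passed at 10 μM beside 1549. Of the members 4 then passed at 10 μM, RXRA added (limma, adjusted p = 0.0333), with no other member's call changed. RXRA also passed at 10 μM after quantile normalization (adjusted p = 0.0426) and without the dimmest 33% of probe sets (0.0471). RARB and CYP26A1 had signals near or under the array median, which limits their values.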

Other observations

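NR2F1-AS1, a long noncoding RNA that starts beside NR2F1 and runs the other way, was looked at after the values of NR2F1 had been seen. Its brightest probe set, 229014_at, had signals of 67.3 and 96.9 in trMCF clone 11, 126 and 135 at 1 μM, 176 and 197 at 10 μM, and 203 and 122 in MCF-10F. The clone was below all other arrays. The difference passed at 10 μM against the clone, at 1.21 ± 0.27 (limma, adjusted p = 0.0478), and not at 1 μM (0.69, adjusted p = 0.194) or in the clone against MCF-10F (-0.96, adjusted p = 0.0802). Its other 2 probe sets were dimmer and passed in none of these comparisons.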
